A study of Apis mellifera with 36 samples.

Results

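The comparison was between guard and nurse honey bees (Apis mellifera workers) of a single colony, colony 5. Its members were the 12 RNA sequencing libraries that the labels assign to colony 5 and to either type, 6 guards and 6 nurses, of 36 libraries in the series. Each library came from 1 bee. The other libraries were 6 unresponsive bees of colony 5 and 18 bees of colony 6 (6 of each type), used here only where a colony 5 result is set beside them.

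All bees were 7 days old and had lived since emergence in laboratory dishes of 10 bees with food, without outside stimuli. Guards had bitten or stung an introduced unrelated bee in both intruder tests of their group. Nurses had tended a queen larva in both nursing tests, and unresponsive bees had shown no overt social response. The tissue was the upper midbrain, chiefly mushroom bodies with the central brain, so it is a mixture of cell types, and in such bulk tissue fewer cells of a type and less RNA per cell cannot be told apart. No genotype or treatment separates the groups: type was assigned from behaviour, and the sampled bees were those whose type was well distinguished. The behaviour scores themselves were not used here. Every title carries a number, and in colony 5 the numbers 5, 19, 32, 35, 36 and 40 each occur once per type. The labels do not say that a number is a dish, so bees with the same number are called a pair below without that meaning.

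Nursing and guarding are tasks of the worker bee's division of labour. Nurses feed brood, usually early in adult life, and guards inspect and attack intruders at the nest entrance. The mushroom bodies are paired insect brain centres that serve learning, memory and the joining of sensory inputs. Deformed wing virus (DWV), a bee pathogen with an RNA genome that the Varroa mite transmits, can be present in the brain of bees without visible deformity, and its RNA is read along with that of the bee.

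Counts assigned to genes ranged from 16.2 to 22.7 M per bee over the 12 libraries. Pairwise correlations of log2 counts per 1000000 gene counts (CPM) across genes lay between 0.975 and 0.992, so no library was a copy of another. The gene identifiers of the deposited tables (GB followed by 5 digits) were looked up in the reference table of gene symbols used here, and 0 of 15314 were found in it. Genes are therefore given by identifier, with no symbol, function or position. For the same reason neither the markers of brain cell types nor the pathway lists could be looked up, and the tissue label was not checked against markers.

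The labelled virus read counts split the 12 bees into 2 separate ranges, and the ranges did not follow behaviour exactly. Among the guards, DWV made up 1.09% of all reads in guard 5, 1.799% in guard 19, 1.16% in guard 32, 1.04% in guard 36 and 1.06% in guard 40, but 0.00201% in guard 35. Among the nurses it made up 2.73% in nurse 5 and 1.56% in nurse 36, but 0.00639% in nurse 19, 0.00125% in nurse 32, 0.00224% in nurse 35 and 0.000999% in nurse 40. In DWV reads per 1000000 total reads (RPM), the 7 bees of the upper range lay between 10412 and 27324 and the 5 bees of the lower range between 9.99 and 63.9, with no bee between. A line at 1000 RPM therefore put 5 of 6 guards and 2 of 6 nurses above it, with guard 35, nurse 5 and nurse 36 in the range held by most of the other type.

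On the log10 RPM scale the load was 3.62 ± 1.14 in guards and 2.31 ± 1.58 in nurses (SD, n = 6 each). The difference of 1.30 did not pass a two-sided exact permutation test over bees (p = 0.208, adjusted over the 2 label measures p = 0.416). Within pairs the guard carried more virus in 3 of 6: numbers 19, 32 and 40, by 2.45, 2.97 and 3.03 log10 units. In numbers 5, 35 and 36 both bees were in the same range, and the guard was below the nurse by 0.397, 0.0474 and 0.176 log10 units. An exact sign-flip test over the pairs gave p = 0.250, where 0.0313 is the smallest value 6 pairs allow.

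Reads that mapped neither to the bee genome nor to DWV made up 17.8% of the reads of guard 5, 19.5% of guard 19, 18.1% of guard 32, 14.9% of guard 35, 17.2% of guard 36 and 16.9% of guard 40. The same share was 22.9% in nurse 5, 13.3% in nurse 19, 14.8% in nurses 32 and 35, 17.8% in nurse 36 and 14.0% in nurse 40. The groups overlapped, at 17.4% ± 1.53 in guards and 16.3% ± 3.60 in nurses (SD, n = 6 each), and the difference of 1.13 percentage points did not pass the exact permutation test (p = 0.519, adjusted p = 0.519). Without nurse 5 the difference was 2.46 points (exact permutation p = 0.0346, unadjusted). Among these guards and nurses the share split by virus range and not by type. Every bee above 1000 RPM had at least 16.9%, and every bee below it had at most 14.9%. In colony 6 the ranges overlapped. Guard 210, at 32.0 RPM, had 18.5%, while guards 213, 230 and 237, above 1000 RPM, had 16.3%, 17.5% and 17.2%. The 6 nurses of colony 6, all below 1000 RPM, were at 14.0% to 15.2%.

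**Figure D1:**
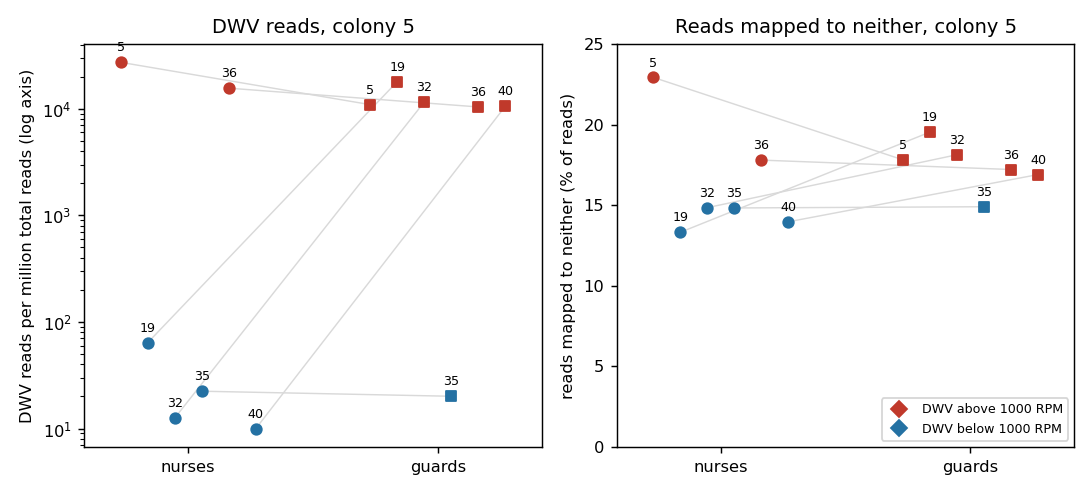
DWV RPM (left, log axis) and unmapped reads, meaning those placed on neither reference, as a percentage of reads (right) for the 6 nurses (circles) and 6 guards (squares) of colony 5, labelled with their title numbers, with lines joining bees of the same number and red marking bees above 1000 RPM. Guard 35 lies with 4 nurses in the lower range and nurses 5 and 36 lie with 5 guards in the upper range, in both panels.

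Across genes, guards and nurses of colony 5 differed little. Of 10782 genes tested with edgeR's quasi-likelihood test, 0 passed an adjusted p of 0.05 (0%), and the lowest adjusted p was 0.532. At an unadjusted p under 0.05, 287 genes were higher in guards (2.66%) and 362 were lower (3.36%), together 649. DESeq2, run as an alternative, called 16 genes, all lower in guards, and limma-voom called 0 with 616 at an unadjusted p under 0.05. The median absolute log2 difference was 0.06 against a median standard error of 0.08. The 95% interval of the difference lay within 1.2-fold either way for 6132 genes (56.9%), within 1.5-fold for 8990 (83.4%) and within 2-fold for 10200 (94.6%). For 8953 genes with a mean of at least 4 CPM, plain ratios of the group mean CPM were also taken, without a fit. They were over 2-fold higher in guards for 11 genes and over 2-fold lower for 37. With each bee left out in turn, the ratio stayed past 2-fold for 7 and 10 of them.

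The 2 genes with the lowest p among those higher in guards were GB45624 and GB45250, and both differences were small. GB45624 was at 63.3, 61.7, 61.0, 62.1, 56.1 and 58.3 CPM in guards 5, 19, 32, 35, 36 and 40, and at 56.0, 52.4, 52.3, 55.0, 50.3 and 53.3 CPM in the nurses of the same numbers. Every guard was above every nurse, the closest being guard 36 and nurse 5, and guard 35, the guard with little virus, was among the higher ones. Since guard 35 had to lie above the nurses here, its place is no test of load. The log2 difference was 0.18 ± 0.04 (SE, edgeR adjusted p = 0.532). The guards had 121 ± 4.01 CPM of GB45250 and the nurses 109 ± 3.70 CPM (SD, n = 6 each), a log2 difference of 0.15 ± 0.04 (edgeR adjusted p = 0.532). Its groups touched, since the lowest guard (guard 40, 113.9 CPM) was just under the highest nurse (nurse 5, 114.2 CPM).

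The 2 genes with the lowest p among those lower in guards, GB40771 and GB51095, differed by more. GB40771 was at 2.19, 0.427, 1.07, 4.06, 0.893 and 1.21 CPM in guards 5, 19, 32, 35, 36 and 40, and at 8.17, 7.23, 5.62, 6.22, 6.46 and 8.58 CPM in the nurses of those numbers. The groups did not overlap. Guard 35, with little virus, was the highest guard, and nurses 5 and 36, with much virus, lay within the range of the other nurses. Because the types did not overlap, these bees had to lie with their own type, so their places are no test of load. The log2 difference was -2.09 ± 0.38 (SE), 4.25-fold lower in guards, with an edgeR adjusted p of 0.532. Without guard 35 this gene alone passed the threshold, and DESeq2 gave an adjusted p of 5.12e-05 with all bees. The 6 unresponsive bees of colony 5, all above 1000 RPM, were at 0.505 to 6.07 CPM. In colony 6 the guards (0.648 to 27.0 CPM) and nurses (1.72 to 6.80 CPM) overlapped.

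GB51095 was at 8.66, 7.50, 6.07, 7.47, 7.92 and 10.6 CPM in guards 5, 19, 32, 35, 36 and 40, and at 24.9, 15.0, 13.6, 13.1, 10.4 and 15.4 CPM in the nurses. Guard 40 was slightly above nurse 36, and all other guards were below all nurses. The log2 difference was -0.94 ± 0.19 (SE, edgeR adjusted p = 0.532), or 1.91-fold lower in guards. DESeq2 gave it an adjusted p of 0.00211. The highest value, in nurse 5, belonged to the bee with the most virus of the 12, while nurse 36, also in the upper virus range, was the lowest nurse. The 6 unresponsive bees of colony 5 were at 5.96 to 11.7 CPM. In colony 6 the guards (5.42 to 15.7 CPM) and nurses (6.77 to 13.2 CPM) overlapped.

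Groups that do not overlap were rare. Every guard was above every nurse in 17 of 10782 genes (0.158%) and below every nurse in 19 (0.176%). Some genes would separate the groups with no difference at all, so these counts are not read as a result. For GB46213, which had the lowest p among the 17 after GB45624, guards ranged from 52.4 to 55.1 CPM and nurses from 45.0 to 51.7 CPM, a log2 difference of 0.17 ± 0.04 (SE, edgeR adjusted p = 0.562). GB44192 was, with GB40771, one of the 2 with the lowest p among the 19.

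**Figure D2:**
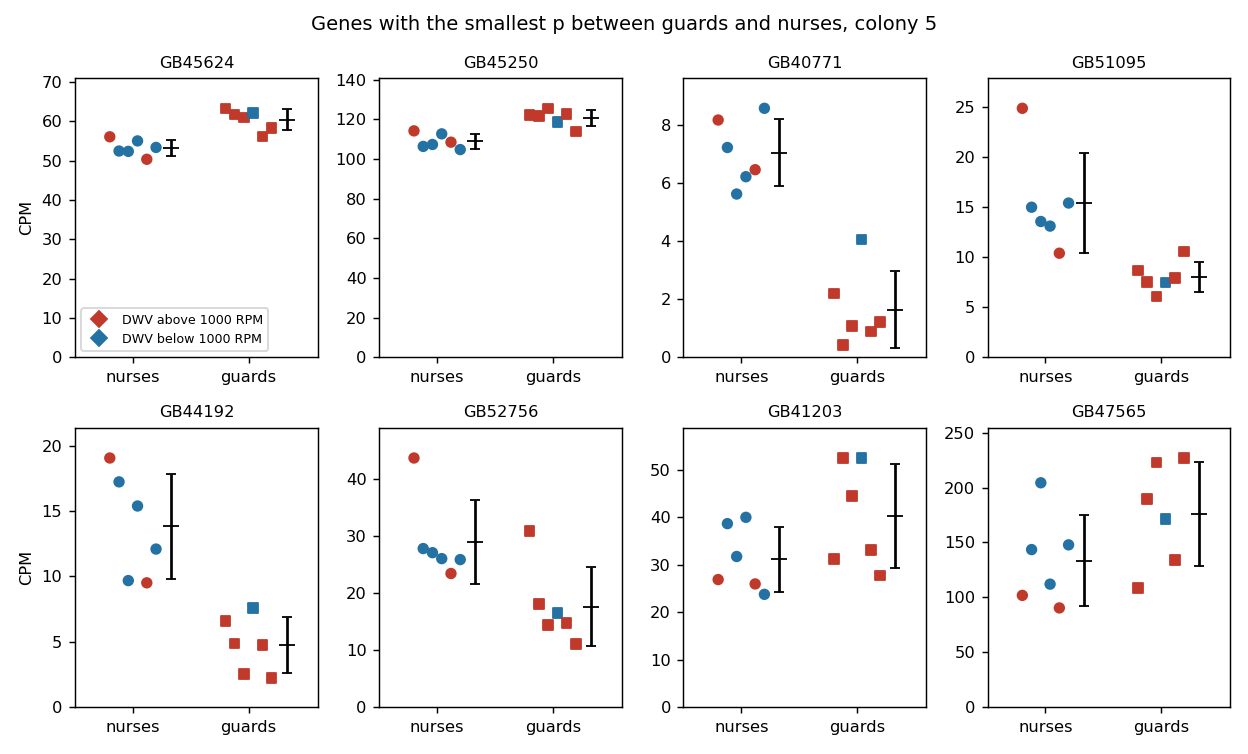
CPM of the 8 genes with the lowest p in the unblocked comparison (GB45624, GB45250, GB40771, GB51095) or in the comparison within pairs (GB44192, GB52756, GB41203, GB47565), for each nurse (circles) and guard (squares) of colony 5, ordered by title number, with mean and SD beside each group and red marking bees above 1000 RPM of DWV. GB45624, GB40771 and GB44192, which were picked by p from these same bees, separate the groups completely. The blue guard is guard 35.

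With the title number as a block in the model, the same 10782 genes gave 2 calls (0.0185%), both lower in guards: GB44192 and GB52756. With only genes at a mean of at least 4 CPM tested, neither passed (edgeR adjusted p = 0.0517 for both) and 0 genes were called, with 691 at an unadjusted p under 0.05, and DESeq2 called 60 genes within pairs. At an unadjusted p under 0.05, 332 genes were higher in guards (3.08%) and 463 lower (4.29%). The guard was above the nurse in all 6 pairs for 255 genes (2.37%) and below it in all 6 pairs for 283 genes (2.62%). With no difference at all some genes would also go one way in every pair, so these counts are not read as a result.

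GB44192 was at 6.57, 4.88, 2.52, 7.58, 4.76 and 2.21 CPM in guards 5, 19, 32, 35, 36 and 40, and at 19.1, 17.2, 9.68, 15.4, 9.51 and 12.1 CPM in the nurses. Every guard was below every nurse. The guard was lower in 6 of 6 pairs, by 0.98 to 2.40 log2 units, and the fitted difference within pairs was -1.60 ± 0.18 (SE), 3.03-fold, with an edgeR adjusted p of 0.0402. Without the block the difference was -1.54 ± 0.30 (SE), with an adjusted p of 0.532 in edgeR and 7.84e-05 in DESeq2. Above 1000 RPM, 5 guards were at 2.21 to 6.57 CPM and nurses 36 and 5 at 9.51 and 19.1 CPM. Below it guard 35 was at 7.58 CPM and 4 nurses at 9.68 to 17.2 CPM. Because the types did not overlap, the guards had to be lower in either range, so this split is no test of load. The 6 unresponsive bees of colony 5, all above 1000 RPM, were at 5.56 to 7.91 CPM. In colony 6 the guards (5.04 to 13.8 CPM) and nurses (8.28 to 13.7 CPM) overlapped widely.

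GB52756 was at 30.9, 18.0, 14.4, 16.5, 14.7 and 11.1 CPM in guards 5, 19, 32, 35, 36 and 40, and at 43.7, 27.8, 27.1, 26.0, 23.4 and 25.9 CPM in the nurses. Both bees of number 5 were the highest of their type, so the groups overlapped through guard 5 alone. The guard was lower in 6 of 6 pairs, by 0.50 to 1.22 log2 units, and the fitted difference within pairs was -0.76 ± 0.09 (SE), 1.69-fold, with an edgeR adjusted p of 0.0402. Without the block it was -0.72 ± 0.23 (SE, edgeR adjusted p = 0.731). This gene also set the colonies apart, with 11.1 to 30.7 CPM in the guards of colony 5 and 52.8 to 69.6 CPM in those of colony 6.

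Without numbers 5, 19 or 32 no gene passed within pairs, and without numbers 35, 36 or 40 there were 3, 2 and 3 calls. GB44192 was among the calls in each of the last 3, and GB52756 only without number 40. With log10 DWV load added to the block, GB44192 was at -1.25 and GB52756 at -0.61 log2 units (edgeR adjusted p = 0.145 and 0.370), with 0 genes called and 552 at an unadjusted p under 0.05.

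The genes with the lowest p among those higher in guards within pairs, GB41203 and GB47565, did not pass in edgeR, while DESeq2 called both (adjusted p = 0.00444 and 0.000161). GB41203 was at 31.2, 52.5, 44.5, 52.5, 33.2 and 27.7 CPM in guards 5, 19, 32, 35, 36 and 40, and at 26.9, 38.7, 31.7, 40.0, 26.0 and 23.8 CPM in the nurses. The groups overlapped, but the guard was higher in 6 of 6 pairs, and bees of the same number were high or low together. Its difference within pairs was 0.35 ± 0.05 log2 units (SE, edgeR adjusted p = 0.109), against an adjusted p of 0.846 without the block. For GB47565 the guards ranged from 109 to 227 CPM and the nurses from 90.3 to 204 CPM, higher in the guard in 6 of 6 pairs by 0.09 to 0.62 log2 units (0.41 ± 0.08 within pairs, SE, edgeR adjusted p = 0.282). In colony 6 the guard was above the same-numbered nurse in 1 of 6 pairs for GB41203 and in 3 of 6 for GB47565.

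**Figure D3:**
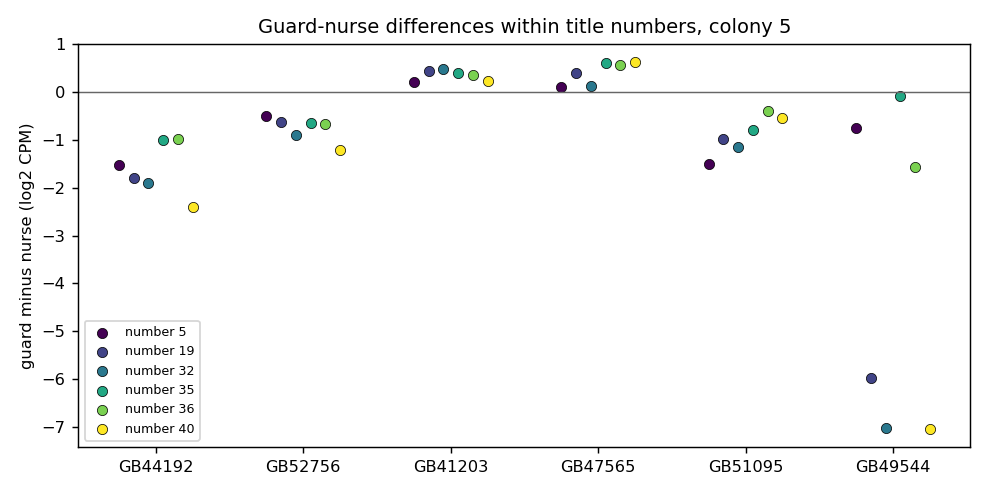
Guard minus nurse difference in log2 CPM within each of the 6 title numbers of colony 5. The genes are the 2 per direction named for the lowest p within pairs (GB44192, GB52756, GB41203, GB47565), with GB51095 and GB49544. The points of GB44192 and GB52756 all lie below 0, those of GB41203 and GB47565 all above it, and GB49544 is near -6 to -7 in the 3 numbers whose bees differ in virus range and between -1.56 and -0.08 in the other 3.

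The comparison was then made at equal virus load, with log10 DWV RPM as a covariate, since 5 of 6 guards and 2 of 6 nurses were in the upper range. Of 10782 genes, 0 passed (0%), with 165 higher (1.53%) and 199 lower (1.85%) at an unadjusted p under 0.05. DESeq2 called 4 genes in the same model. The sum at that threshold was 364, against 649 without the covariate (2.66% higher and 3.36% lower). With no difference at all, a share of 0.05 of the genes would fall under it, so the change between the sums is not read as a result. Type and load are separated here mainly by guard 35, nurse 5 and nurse 36. The median standard error was 0.09 with the covariate and 0.08 without, and the median absolute difference was 0.06 in both models.

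The 2 leading lower genes at equal load were again GB40771, at -1.94 ± 0.37, and GB51095, at -1.04 ± 0.20 log2 units (SE, adjusted p = 0.693 for both in edgeR, 0.00155 and 0.00218 in DESeq2), close to their values without the covariate. Both were picked by the lowest p for type in this same fit, so that closeness is no test of load. Over the alternatives tried, GB40771 lay between -2.61 and -1.65 and GB51095 between -1.26 and -0.63 log2 units. The leading higher genes were GB42595 and GB40617. GB42595 was at 34.6, 36.5, 28.4, 32.8, 32.7 and 30.2 CPM in guards 5, 19, 32, 35, 36 and 40, and at 25.3, 26.8, 25.3, 31.0, 23.5 and 25.1 CPM in the nurses. Only nurse 35 reached into the guards' range, above guards 32 and 40. Its difference at equal load was 0.35 ± 0.09 log2 units (SE, edgeR adjusted p = 1.00). For GB40617 the guards ranged from 10.2 to 14.5 CPM and the nurses from 7.48 to 10.2 CPM, with a difference of 0.49 ± 0.12 at equal load (SE, edgeR adjusted p = 1.00).

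The slope on virus load, with type in the same model, called 1 of 10782 genes (0.00927%), GB49544, which was lower at higher load. At an unadjusted p under 0.05, 144 genes had a positive slope (1.34%) and 147 a negative one (1.36%). GB49544 was at 114, 125, 79.7 and 152 CPM in nurses 19, 32, 35 and 40 and at 75.4 CPM in guard 35, the 5 bees with little virus. It was at 1.33, 1.71, 0.859, 1.79 and 1.06 CPM in guards 5, 19, 32, 36 and 40 and at 2.29 and 5.46 CPM in nurses 5 and 36, the 7 bees with much virus. The virus ranges did not overlap for this gene, while the behavioural types did. The slope was -1.79 ± 0.13 log2 units per 10-fold higher load (SE, edgeR adjusted p = 0.00103). With no bee between the virus ranges, this slope mostly contrasts the ranges and shows no graded relation to load. Over the single-bee omissions the adjusted p lay between 0.000307 and 0.0205, and with the title number as a block it was 0.133.

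Compared by type alone, GB49544 was at -2.54 ± 1.35 log2 units in guards (SE, edgeR adjusted p = 0.849). At equal load it was at -1.26 ± 0.38 (SE, edgeR adjusted p = 1.00). The fit did not use the other bees. The 6 unresponsive bees of colony 5, all in the upper virus range, were at 0.759 to 12.1 CPM. In colony 6 the relation was not the same: 3 guards above 1000 RPM were at 0.512 to 5.80 CPM, but of the 15 bees below it only 5 exceeded 20 CPM, namely guards 205 and 222 and nurses 205, 210 and 237, at 59.3, 124, 52.7, 894 and 20.4 CPM.

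The second gene with a negative slope, GB51698, was at 0.755 to 1.71 CPM in the 7 bees with much virus and at 3.49 to 27.6 CPM in the 5 with little, a slope of -0.99 ± 0.18 (SE) that did not pass (adjusted p = 0.435 in edgeR, 0.000139 in DESeq2). Of the 2 leading genes with a positive slope, GB46240 had a small one, 0.08 ± 0.02 (SE, edgeR adjusted p = 1.00), with 110 to 150 CPM over the 12 bees. GB52205 took 1 of 2 levels in each bee. It was at 104, 97.1, 95.0, 89.0 and 111 CPM in guards 5, 19, 32, 36 and 40 and at 102 CPM in nurse 36, but at 2.46 CPM in guard 35 and at 5.88, 6.53, 3.84, 3.40 and 7.71 CPM in nurses 5, 19, 32, 35 and 40. The high level thus occurred in 6 of the 7 bees with much virus, nurse 5 being the exception, and in none of the 5 with little. Its slope was 1.28 ± 0.29 (SE, edgeR adjusted p = 1.00), which passed with DESeq2 (adjusted p = 0.000241) and with edgeR without nurse 5 (adjusted p = 0.00675). Among the 6 unresponsive bees of colony 5, all with much virus, only 1 (number 40, 108 CPM) was at the high level and the other 5 were at 2.93 to 5.00 CPM. In colony 6 the gene was at 1.56 to 27.6 CPM, with both lower and higher values on each side of 1000 RPM.

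**Figure D4:**
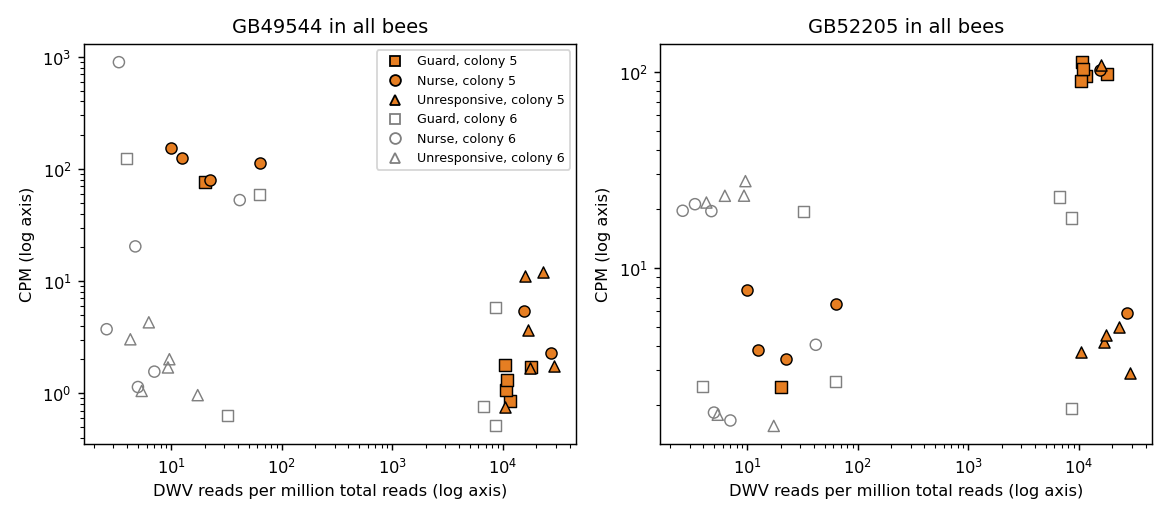
CPM (log axis) of GB49544 and GB52205 against DWV RPM (log axis) in all 36 bees, filled for colony 5 and open for colony 6, with the marker giving the behavioural type. In colony 5 GB49544 is at 75.7 to 152 CPM in the lower virus range and at 12.1 CPM or less in the upper one, whereas GB52205 has both levels in the upper range.

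Each bee was also placed on the guard-nurse difference as a whole. For this the genes at an unadjusted p under 0.05 were chosen without the bee in question, and its position was scaled so that 0 is the mean of the other nurses and 1 that of the other guards. Guards 5, 19, 32, 35, 36 and 40 lay at 0.308, 0.419, 0.957, 0.163, 0.896 and 0.770, and the nurses of those numbers at 0.497, 0.178, 0.0115, 0.240, 0.849 and 0.294. The types overlapped. The virus ranges did not: the 7 bees above 1000 RPM lay between 0.308 and 0.957 and the 5 below it between 0.0115 and 0.294. Guards 5 and 19, with much virus, and guard 35, with little, were nearer to the nurse mean than to the guard mean, nurse 36 was nearer to the guard mean, and nurse 5 lay midway. Because most guards left in each fit had much virus and most nurses little, the axis itself carries both type and load, and these cannot be told apart in it.

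The 6 unresponsive bees of colony 5, which entered no choice of genes and all had much virus, lay between 0.468 and 0.897. In colony 6, centred on its own nurses, nurses lay between -0.748 and 0.334, guards between -0.267 and 0.541 and unresponsive bees between -0.0922 and 0.438, so the types overlapped. The virus ranges overlapped there too: guards 213, 230 and 237, with much virus, were at 0.510, 0.111 and 0.541, and guard 210 and unresponsive bees 213 and 222, with little, at 0.411, 0.438 and 0.409. The first principal component of the 12 libraries, which uses no label, held 22.5% of the variance. On it the guards lay between -22.7 and -0.134 and 5 of 6 nurses between 2.04 and 26.5, with nurse 36 at -12.3 among the guards. The 5 bees with little virus lay between -1.13 and 26.5 and the 7 with much virus between -22.7 and 2.04, overlapping through guards 35 and 19 and nurse 5.

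**Figure D5:**
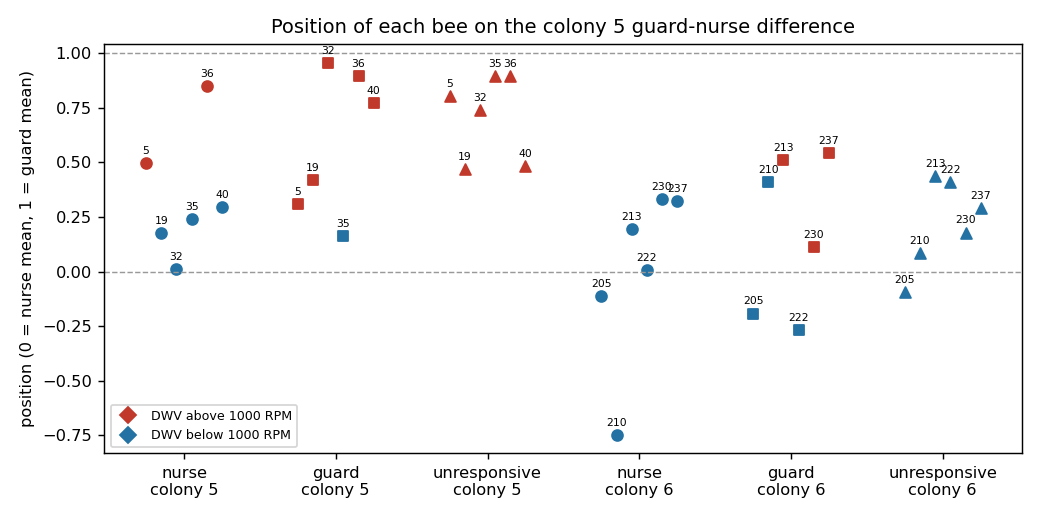
Position of each bee on the guard-nurse difference of colony 5 (0 = nurse mean, 1 = guard mean, dashed lines), by type and colony, labelled with title numbers, with red marking bees above 1000 RPM of DWV. In colony 5 the red bees lie at 0.308 or above and the blue bees at 0.294 or below, whatever their type.

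The guard-nurse difference of colony 5 was set against that of colony 6 by an interaction term over 24 libraries. Of 11100 genes, 0 passed (0%), with 183 more positive in colony 5 (1.65%) and 272 more negative (2.45%) at an unadjusted p under 0.05 and a lowest edgeR adjusted p of 0.714. DESeq2 called 6, among them GB40980, GB42889 and GB47805. Virus load was not alike in the colonies: in colony 6 the 6 nurses were all below 1000 RPM (2.60 to 41.6 RPM) and 3 of 6 guards above it.

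GB40980 and GB44885 led the genes whose difference was more positive in colony 5. In colony 5 the guards had 217 ± 31.1 CPM of GB40980 and the nurses 200 ± 19.2 CPM, against 179 ± 16.9 and 260 ± 39.9 CPM in colony 6 (SD, n = 6 each), a difference between colonies of 0.65 ± 0.14 log2 units (SE, edgeR adjusted p = 0.714). For GB44885 that difference was 0.37 ± 0.10 log2 units. GB42889 and GB47805 led those more negative in colony 5, at -2.14 ± 0.50 and -1.96 ± 0.46 log2 units (SE, edgeR adjusted p = 0.714 for both). In colony 5 the guards had 125 ± 9.06 CPM of GB47805 and the nurses 141 ± 15.7 CPM, against 173 ± 120 and 50.1 ± 5.04 CPM in colony 6 (SD, n = 6 each). For these genes the larger separation of the types was in colony 6, not in colony 5.

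Another 5 genes were taken from an earlier analysis of these data and are given as values in colony 5 only, none of which passed in edgeR. GB42469 was at 12.7, 8.47, 15.5 and 9.82 CPM in guards 5, 19, 32 and 36, at 1.33 and 2.26 CPM in guards 35 and 40, and at 1.18 to 3.20 CPM in all nurses. Its log2 difference was 1.89 ± 0.54 (SE, edgeR adjusted p = 0.639). For GB55375 the guards ranged from 6.82 to 13.8 CPM and the nurses from 13.5 to 48.8 CPM, -1.29 ± 0.31 log2 units (SE, adjusted p = 0.573 in edgeR and 0.0476 in DESeq2), with the guard lower in 6 of 6 pairs. GB43784 was at 62.3 CPM in guard 5 and at 14.6 to 20.9 CPM in the other 11 bees, so its log2 difference of 0.49 ± 0.34 was -0.0039 without that guard. GB52542 and GB53925 were at -0.29 ± 0.14 and 0.03 ± 0.31 log2 units (SE).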

How the data were processed

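Per the submitters' processing notes, the tools included HTSeq, SAMtools 0.1.19, TopHat2 2.0.10 with Bowtie2 2.1.0, and CASAVA 1.8.2, with no parameters stated. Raw counts per gene were deposited, 1 file per bee, from a stranded mRNA kit per the labels' protocols. Their 5 summary rows, 31.2% to 32.9% of each guard's and 31.5% to 32.1% of each nurse's total, were left out, leaving 15314 identifiers. DWV and total reads come from the labels.

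Counts were tested with edgeR 4.0.16 (R 4.3.3; filterByExpr, TMM scaling, robust quasi-likelihood fit, Benjamini-Hochberg adjustment, threshold 0.05), with DESeq2 1.42.0 and limma 3.58.1 as alternatives. CPM use TMM-scaled totals, over 12 libraries or, beside other bees, over 36; log2 CPM add a prior count of 2. Steps were tested on simulated data. Exact tests used SciPy 1.17.1. Each comparison names the 2 genes per direction with the lowest p among those with a mean of at least 4 CPM, non-overlapping genes likewise, and 6 genes from an earlier analysis (GB47805 is also in the first set). The members and lists were chosen with earlier results of these data known. Nothing in the labels says that bees of a group are separate cultures beyond their numbers, so p-values measure the spread between these bees. The file names give each type its own second index sequence, so type and index cannot be told apart. Deviations of same-numbered bees correlated at 0.131 on average, against -0.0252 for different numbers, but not above 0.1 in every pair. No label says what the title number marks, so the unblocked fit is the main one and the block is given beside it.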

Additional observations from a re-analysis of the deposited data

Results flagged for a closer look

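By Dixon's criterion for 6 values, 14 of 64 groups held a bee that stood apart from the others of its group. For unselected values chance alone marks about 1 in 20. Many of these groups are genes picked by p from these same bees, so the 2 rates cannot be compared. Guard 35 was the lowest guard for DWV (1.30 log10 RPM) and for GB52205 (2.46 CPM), and the highest for GB49544 (75.4 CPM) and GB51698 (4.06 CPM). Guard 5 was the highest guard for GB43784 (62.3 CPM), GB42889 (9.68 CPM), GB53925 (9.89 CPM) and GB52756 (30.9 CPM). Nurse 5, of the same number, was the highest nurse for GB52756 (43.7 CPM) and GB51095 (24.9 CPM). Nurse 36 was the only nurse at the high level of GB52205 (102 CPM). Nurse 32 was the highest nurse for GB53925 (9.95 CPM) and the lowest on the second principal component (-18.6). Guard 40 was the lowest guard for GB46213 (52.4 CPM), in a group that spans few CPM.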

How the results depend on the processing

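The count of genes called between guards and nurses, 0 with edgeR, was 16 with DESeq2, 2 with the replicate block, and 1 each with all 36 libraries (GB44192), with the block over all 18 colony 5 libraries (GB44192) and with bees above 1000 RPM only (GB44207, named after its values were seen). It was 0 to 1 with single bees left out, the 1 being GB40771 without guard 35, and 10 (3 higher, 7 lower) without guard 35, nurse 5 and nurse 36, the bees in the other type's virus range. Within pairs the 2 calls became 0 at a mean of at least 4 CPM, 60 (4 higher, 56 lower) with DESeq2, 0 to 3 without single numbers and 0 with load as a covariate, alternatives chosen after seeing the data. At equal load the count of 0 was 4 with DESeq2 and 0 to 3 without single bees, 1 (GB51095) without nurse 36 and 3 without guard 35. The 1 slope call became 6 with DESeq2, 0 with the replicate block, 1 to 3 without single bees (3 without nurse 5, 2 without guard 35) and 3 with load alone in the model. The colony difference gave 6 calls with DESeq2 and 0 without single bees. The causes were not tested. The load difference was 1.04 to 1.77 log10 units and the difference in reads mapped to neither 0.542 to 2.46 points without single bees, the last without nurse 5. GB53925 changed direction without guard 5 (-0.25), nurse 5 (-0.02), 19 (-0.02), 35 (-0.01) or 40 (-0.06) and without the 3 bees named above (-0.0534); its range without single bees was -0.251 to 0.337, and that of GB43784, which changed direction without guard 5, was -0.0039 to 0.602. As to pairing, deviations of same-numbered bees correlated at 0.00121, 0.288, 0.0245, 0.140, 0.259 and 0.0757 in numbers 5, 19, 32, 35, 36 and 40, 3 of 6 above 0.1, and 7 of 12 bees correlated best with their own number, a hint from the data and not from the design. Of the recalculated counts of genes called and label differences, 97 were classed as the same as the main result, 22 as moved and 1 as passing where its main value did not. Of the recalculated values of named genes, 514 kept their direction and side of the threshold. Another 22 passed where the main value did not, 13 no longer passed and 7 changed direction.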
